A study of Mus musculus with 6 samples.

Results

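Immediate early genes and the feedback genes of the NF-kB pathway were examined as a set of 48 members, chosen by symbol: 8 genes of the AP-1 family, 3 of the EGR family, 3 of the NR4A family, 4 of the KLF family, 3 genes for small MAF proteins and MYC, 6 genes in a mixed set of IER genes with Csrnp1, Btg2 and Rhob, 3 GADD45 genes, 5 dual-specificity phosphatases, 3 mRNA decay factors, 5 NF-kB subunits and 5 NF-kB inhibitors. All 48 have a row among the 48795 genes of the count table. The RNA came from BAL cells, which bronchoalveolar lavage rinses from the lung's air spaces. The mice were wild-type C57BL/6 animals of both sexes, 8 to 12 weeks of age. The study gave them cadmium chloride intratracheally at 100 ng/kg, or saline, with the lavage 7 days later. Its 6 libraries are CD170, CD171, CD174, CD176, CD177 and CD178. Their labels name neither exposure nor sex for any library, so none was assigned to a group, no comparison of exposure was made, and each library is described on its own. Whether each library is 1 mouse or a pool is not given in the sources used here.

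Immediate early genes are transcribed within minutes of a stimulus without new protein synthesis. Growth factors, cytokines and stress act on them through MAP kinases and transcription factors such as SRF and CREB that are already in the cell. Their products include the AP-1, EGR, NR4A and KLF transcription factors, the phosphatases that switch MAP kinases off and the ZFP36 proteins that degrade unstable mRNAs. NF-kB is held in the cytoplasm by IkB proteins, and its target genes include those for its own inhibitors, which end the response. In macrophages both programmes precede the output of inflammatory cytokines.

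The gene counts per library ran from 7732244 in CD174 to 23599369 in CD178. Levels are in CPM, counts divided by a library size that carries the TMM factor of edgeR, and ranges are highest minus lowest library on the log2 CPM scale. Intervals are exact 95% Poisson intervals and cover counting error only. For a count of 0 a floor of 3 counts was used, or 0.123 CPM in CD178 and 0.447 CPM in CD174. The exact interval of a count of 0 reached higher, to 0.151 and 0.549 CPM. The 10 alveolar macrophage markers, which include Chil3, Marco and Siglecf, had counts in every library and summed to 26682 CPM in CD171 up to 33061 CPM in CD177. Marker lists of neutrophils, monocytes, dendritic cells, T and NK cells, and B cells were low, with a highest sum of 102 CPM for neutrophils in CD177, and Ly6g, Nkg7 and Klrb1c had no count in any library. Reads in no annotated feature took 25.0% of all counts in CD174. They took 16.6% in CD171, and 6.49 to 7.29% elsewhere. In lavage as a whole, fewer cells of a type and less RNA per cell cannot be told apart.

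CD176 held the highest level of the set. The 48 members summed to 6188 CPM in CD176, 5142 in CD174, 4673 in CD170, 4670.3 in CD178, 4453 in CD177 and 4353 in CD171. The 95% interval of the sum was 6149 to 6228 CPM in CD176 and 4317 to 4389 CPM in CD171, the lowest library, a ratio of 1.42, which was 1.47 with total gene counts. Family by family, CD176 had the highest sum for 7 of 11: the AP-1, EGR and NR4A families, the mixed IER set, the phosphatases, the mRNA decay factors and the NF-kB inhibitors. The interval of CD176 overlapped those of CD174 and CD170 for NR4A and that of CD171 for the inhibitors. A filter that asked for 10 or more counts in 3 or more libraries left 45 members. Of these, 13 were highest in CD176, or 28.9%, against 11.5% of the 12627 genes past the same filter. None was lowest in CD176, while 8.81% of all genes were. The log2 ratio of CD176 to the median of the other 5 libraries was above 0 for 35 of the 45, against 51.9% of all genes, with a median of 0.36 for the members and 0.01 for all genes. It was 1 or more for 6 members (Fosb, Fosl1, Ier3, Csrnp1, Btg2 and Dusp1), against 4.4% of all genes, and -1 or lower for none, against 3.26%. Fosl1 had only 11 counts in CD176. The same ratio for CD174 was 1 or more for 6 members, Ier3 and Dusp1 among them, against 10.8% of all genes. It was -1 or lower for 5, against 20.1%. CD176 was singled out by the sum of these same values, so its counts and ratios are not separate support for its place. In the other libraries the median of the members lay between -0.14 in CD171 and -0.03 in CD170. Elsewhere the highest level fell in CD170 for 6 members (14.5% of all genes), in CD171 for 6 (20.1%), in CD174 for 14 (29.9%), in CD177 for 4 (12.5%) and in CD178 for 2 (11.5%). The lowest fell in CD170 for 7 (10.1% of all genes), in CD171 for 12 (22% of all genes), in CD174 for 10 (36.9%), in CD177 for 5 (10.5%) and in CD178 for 9 (9.12%). The filter keeps a gene that is high in as few as 3 libraries, and Egr3, Dusp2 and Dusp4 did not pass it.

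**Figure D1:**
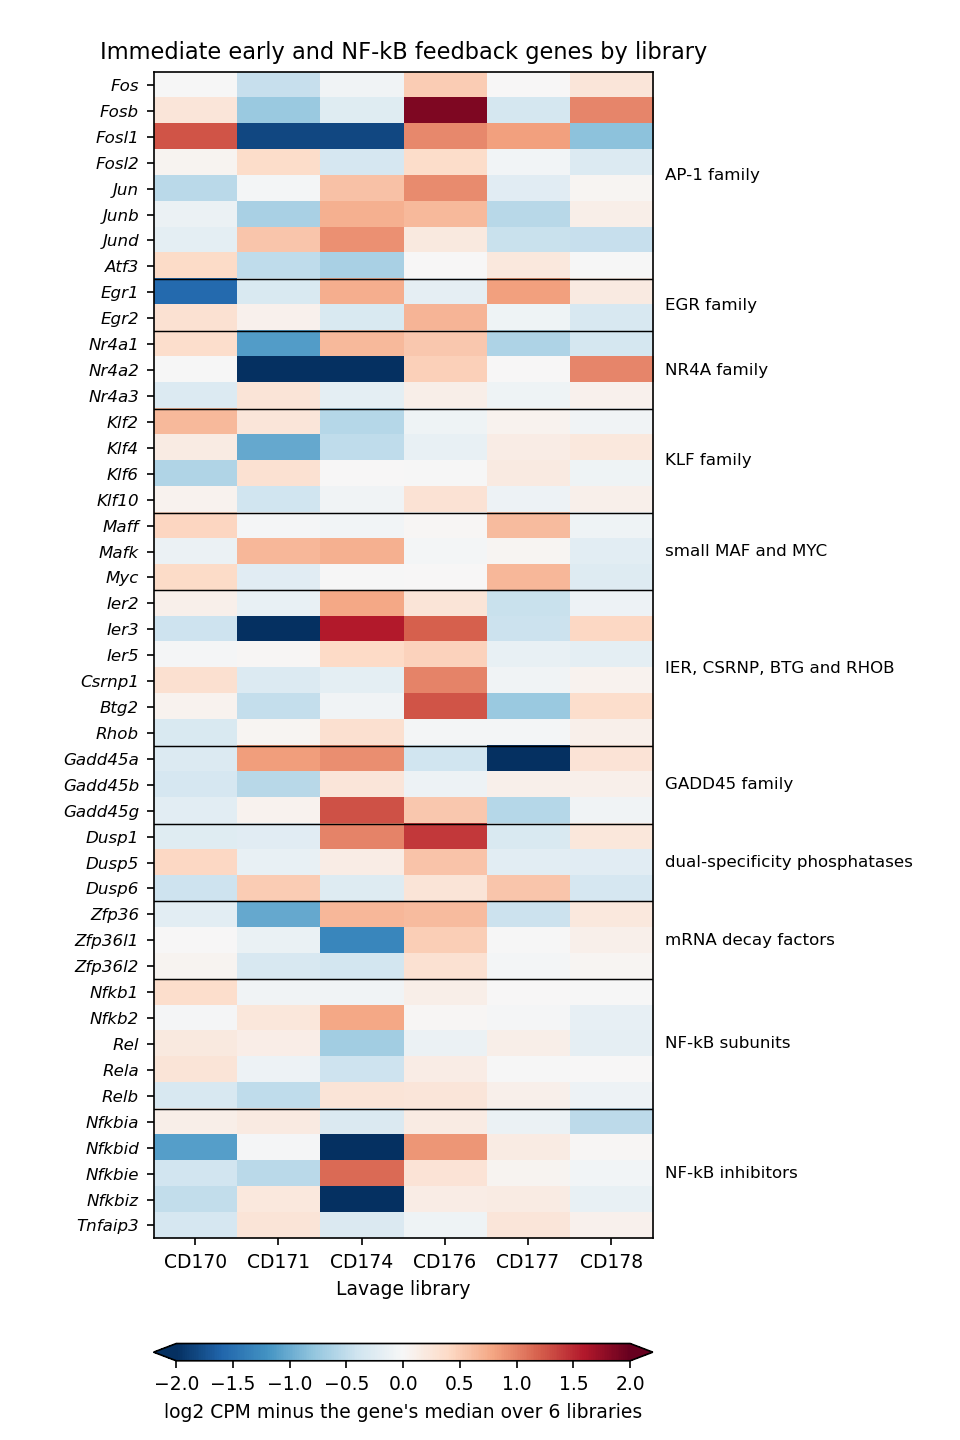
Each row is 1 of the 45 members past the count filter and each column a library. Colour gives log2 CPM minus the gene's median over the 6 libraries, cut at -2 and 2, with horizontal lines between families. CD176 is red for Fosb, Btg2, Dusp1, Jun and Csrnp1, and the NF-kB subunit rows are pale.

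Over all 6 libraries the share of members with a wide range was close to that of all genes. Without CD174 both shares fell, and that of the members fell less. The log2 range reached 1 for 24 of the 45 members, or 53.3%, against 50.5% of all genes past the filter. The median log2 range was 1.03 for the members and 1.01 for all genes. Over the 5 libraries other than CD174 the range reached 1 for 18 of 45 members, or 40.0%, against 31.0% of the genes past the filter there. Over the 4 libraries other than CD171 and CD174 it did so for 16 of 45, or 35.6%, against 16.9%. Among the 35 immediate early genes past the filter, 21 had such a range over all 6 libraries, while 3 of the 10 NF-kB genes did. The intervals of the highest and the lowest library were separate for 44 of the 45 members and for 96.5% of all genes, so at this depth almost any gene differed between some libraries by more than counting error. The exception was Nr4a3.

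**Figure D2:**
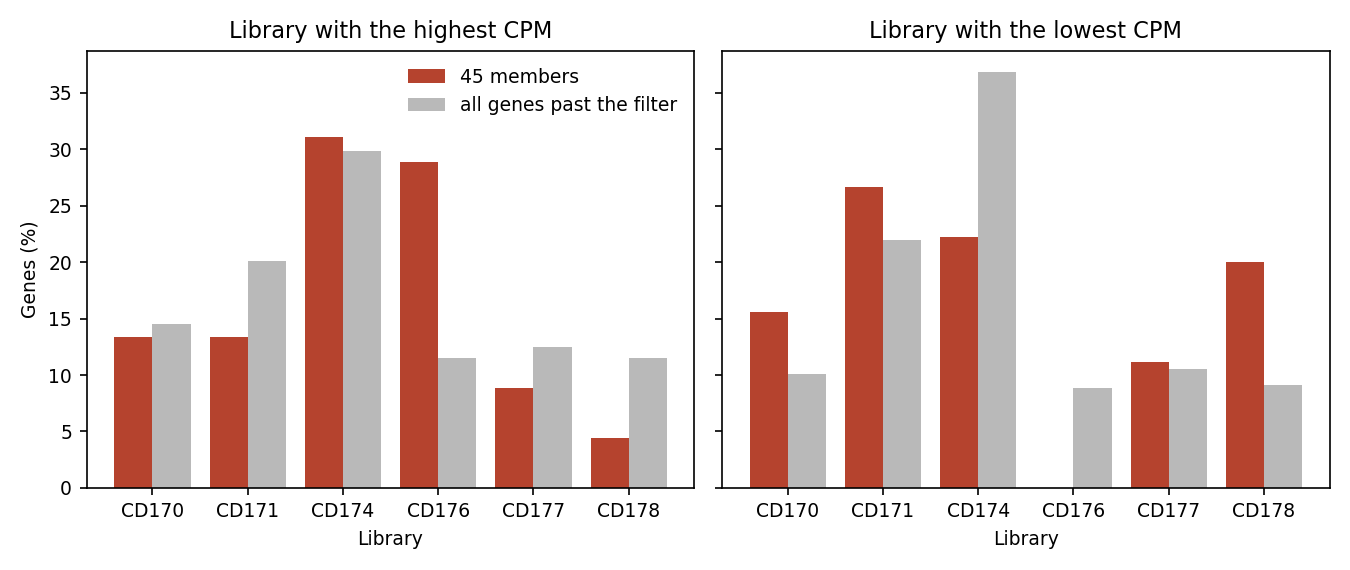
Bars give the percentage of genes whose highest (left) or lowest (right) CPM fell in each library, for the 45 members and for all genes past the filter. CD176 holds the highest level of 28.9% of members and 11.5% of all genes, and the lowest level of no member.

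In the AP-1 family, whose FOS and JUN proteins pair on DNA, the highest library differed from gene to gene. Fos was at 257 CPM in CD176, 214 in CD178, 183 in CD177, 179.5 in CD170, 173 in CD174 and 132 in CD171. It was highest in CD176, where the interval lay above that of CD178, the next library, and lowest in CD171. Fosb, a close relative of Fos, was at 29.9 CPM in CD176, 16.0 in CD178, 9.55 in CD170, 6.85 in CD174, 6.30 in CD177 and 4.79 in CD171. Its level in CD176 was 1.87 times that in CD178 and 6.25 times that in CD171. Both FOS genes thus had CD176 first, CD178 second and CD171 last. Fosl2, a FOS-related member, was at 331 CPM in CD171, 330.1 in CD176, 268 in CD170, 246 in CD177, 212 in CD178 and 204 in CD174. Its highest libraries, CD171 and CD176, were nearly equal, and CD174 was lowest. Jun reached 131 CPM in CD176 and 103 CPM in CD174, and lay between 46.8 and 70.0 CPM in the others. Junb was at 289 CPM in CD174 and 275 CPM in CD176, with overlapping intervals, and CD178 followed at 191 CPM, with CD171 lowest at 112 CPM. Jund, the least inducible JUN gene in most cells, was highest in CD174 at 157 CPM and lowest in CD178 at 60.6 CPM. Atf3, a stress-induced AP-1 partner, ran from 19.4 CPM in CD174 to 39.6 CPM in CD170. Fosl1, a FOS-related gene, was at 0.902 CPM in CD170, 0.719 in CD176, 0.634 in CD177, 0.123 in CD178, 0 in CD171 and 0 in CD174. These levels rest on at most 17 counts in a library and none in CD171 and CD174.

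The EGR family, zinc finger factors induced through SRF, was carried by Egr2. Egr2 was at 239 CPM in CD176, 183 in CD170, 157 in CD171, 141 in CD177, 119.7 in CD174 and 118 in CD178. CD176 was highest, and CD174 and CD178 were lowest and nearly equal. Egr1, usually among the most strongly induced immediate early genes, was at 3.51 CPM in CD177, 3.28 in CD174, 2.22 in CD178, 1.70 in CD176, 1.54 in CD171 and 0.584 in CD170. It had 11 to 72 counts in a library, and CD176 was not its highest library. Egr3 had no count in any library. Set per kilobase of exons, the median level was 43.8 CPM for Egr2, 77.0 CPM for Fos and 0.437 CPM for Egr1.

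The NR4A family, orphan nuclear receptors with an immediate early response, was low. Nr4a1 was at 22.3 CPM in CD174, 20.8 in CD176, 18.3 in CD170, 11.1 in CD178, 9.22 in CD177 and 6.48 in CD171. The intervals of CD174, CD176 and CD170, the highest libraries, overlapped, and CD171 was lowest. Nr4a3 was at 6.71 CPM in CD171, 6.14 in CD176, 5.95 in CD178, 5.32 in CD177, 4.91 in CD174 and 4.62 in CD170, and the intervals of its highest and lowest library overlapped. Nr4a2 was at 1.07 CPM in CD178, 0.719 in CD176, 0.488 in CD177, 0.477 in CD170, 0 in CD171 and 0 in CD174. It had at most 26 counts in a library and none in CD171 and CD174, where the exact intervals reached 0.285 and 0.549 CPM.

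In the mixed IER set the widest gap between CD176 and the rest was that of Btg2, an antiproliferative gene whose product recruits mRNA deadenylases. Btg2 was at 542 CPM in CD176, 288 in CD178, 238 in CD170, 215 in CD174, 163 in CD171 and 135 in CD177. CD176 stood 1.88 times above CD178, the next library, and 4.02 times above CD177, the lowest. Ier5, an immediate early gene linked to the heat shock factor HSF1, was at 362 CPM in CD176, 347 in CD174, 269.9 in CD171, 259 in CD170, 239 in CD177 and 229.9 in CD178. Its intervals in CD174 and CD176 overlapped, and these libraries were above the other 4. Csrnp1, a nuclear protein gene, reached 33.5 CPM in CD176, while no other library was above 20.9 CPM. Ier2 was highest in CD174 at 219 CPM, with 153 CPM in CD176 and 94.6 to 138 CPM elsewhere. Rhob, a small GTPase, was at 279 CPM in CD174, 239.9 in CD178, 229.7 in CD171, 219 in CD176, 218 in CD177 and 181 in CD170. It had a log2 range of only 0.62, with CD174 highest and CD170 lowest. Ier3, which modulates NF-kB and ERK signalling, was at 8.93 CPM in CD174, 6.79 in CD176, 3.90 in CD178, 2.12 in CD170, 2.10 in CD177 and 0 in CD171. Its level of 8.93 CPM in CD174 was 38.6 times the 3-count floor of CD171, where the exact interval of a count of 0 reached 0.285 CPM.

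Of the dual-specificity phosphatases, which remove phosphate from MAP kinases, 3 of 5 passed the filter. Dusp1, a nuclear phosphatase for p38 and JNK, was at 167 CPM in CD176, 124 in CD174, 72.9 in CD178, 53.6 in CD171, 52.9 in CD170 and 50.5 in CD177. CD176 was highest, CD174 second, and both were well above the other libraries, which lay between 50.5 and 72.9 CPM. Dusp5, a phosphatase for nuclear ERK, was at 162 CPM in CD176, 145 in CD170, 120.5 in CD174, 98.9 in CD171, 94.2 in CD177 and 92.9 in CD178. CD176 was again highest, by 1.11 times over CD170. Dusp6, a phosphatase for cytoplasmic ERK, was at 122 CPM in CD177, 119 in CD171, 99.1 in CD176, 69.7 in CD174, 66.1 in CD178 and 62.0 in CD170. Here CD177 and CD171 were highest and CD170 was lowest, an order unlike that of Dusp1. Dusp2 had 22 counts in CD178, 9 in CD170, 9 in CD176 and 3 in CD177. Dusp4 had 20 counts in CD170, 13 in CD178, 2 in CD176 and 1 in CD177. Both had none in CD171 and CD174.

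The mRNA decay factors bind AU-rich sequences in unstable transcripts, those of cytokines and immediate early genes among them. Zfp36l2 was the most abundant member of the whole set, at 996 CPM in CD176, 837 in CD170, 825 in CD178, 789 in CD177, 648 in CD171 and 627 in CD174. CD176 was highest by 1.19 times over CD170. Zfp36, which encodes tristetraprolin, was at 285 CPM in CD174, 278 in CD176, 209 in CD178, 155 in CD170, 133 in CD177 and 88.1 in CD171. CD174 and CD176 had overlapping intervals and stood above the rest, and CD171 was lowest. Zfp36l1 was low, at 13.8 CPM in CD176 and 3.87 CPM in CD174.

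**Figure D3:**
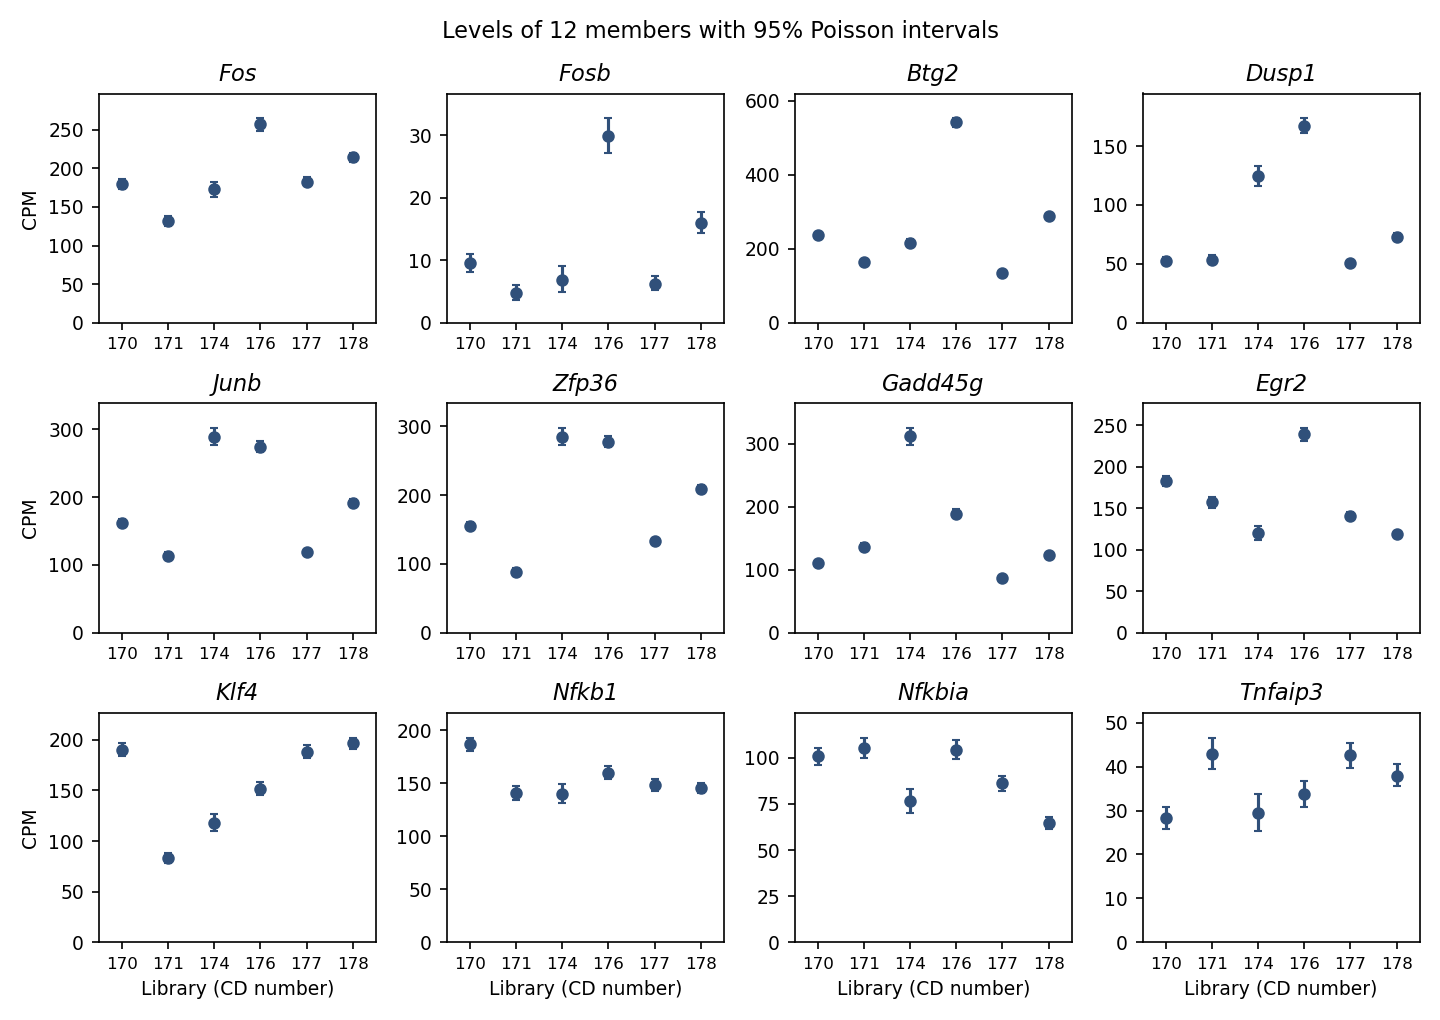
Points give the CPM of 12 members in each of the 6 libraries, with bars for exact 95% Poisson intervals, on linear axes that start at 0. Fos, Fosb, Btg2, Dusp1 and Egr2 are highest in CD176, Junb and Zfp36 are high in both CD174 and CD176, and Nfkb1, Nfkbia and Tnfaip3 stay within a narrower band.

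Of the 15 possible pairs of libraries, 3 were the highest pair of the most members; they were picked after the values were seen. CD174 and CD176 were the highest pair of 11 of the 45, or 24.4%, against 7.23% of all genes past the filter: Jun, Junb, Nr4a1, Ier2, Ier3, Ier5, Gadd45g, Dusp1, Zfp36, Relb and Nfkbie. CD170 and CD176 were the highest pair of 7, against 4.91% of all genes: Fosl1, Egr2, Csrnp1, Dusp5, Zfp36l2, Nfkb1 and Rela. CD176 and CD178 were the highest pair of 6, against 6.41% of all genes: Fos, Fosb, Nr4a2, Klf10, Btg2 and Zfp36l1. The place of CD174 rests on scaling. By TMM, 31.1% of the members were highest in CD174, near the share of all genes. With total gene counts, which lower all of CD174, 6 members were highest in CD174 and 19 in CD176, against 19.5% and 14.5% of all genes. Junb, Nr4a1, Zfp36 and Relb then had CD176 as their highest library, Mafk and Gadd45a had CD171, Rhob had CD178 and Gadd45b had CD177. Fosl2 and Nfkbia, highest in CD171 by TMM, also had CD176. The 13 members that were highest in CD176 by TMM were highest there also with total counts and with DESeq2 size factors. Without CD174, 21 of 45 members were highest in CD176, against 16.8% of all genes, and without both CD171 and CD174 26 of 45 were, against 25.2%.

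**Figure D4:**
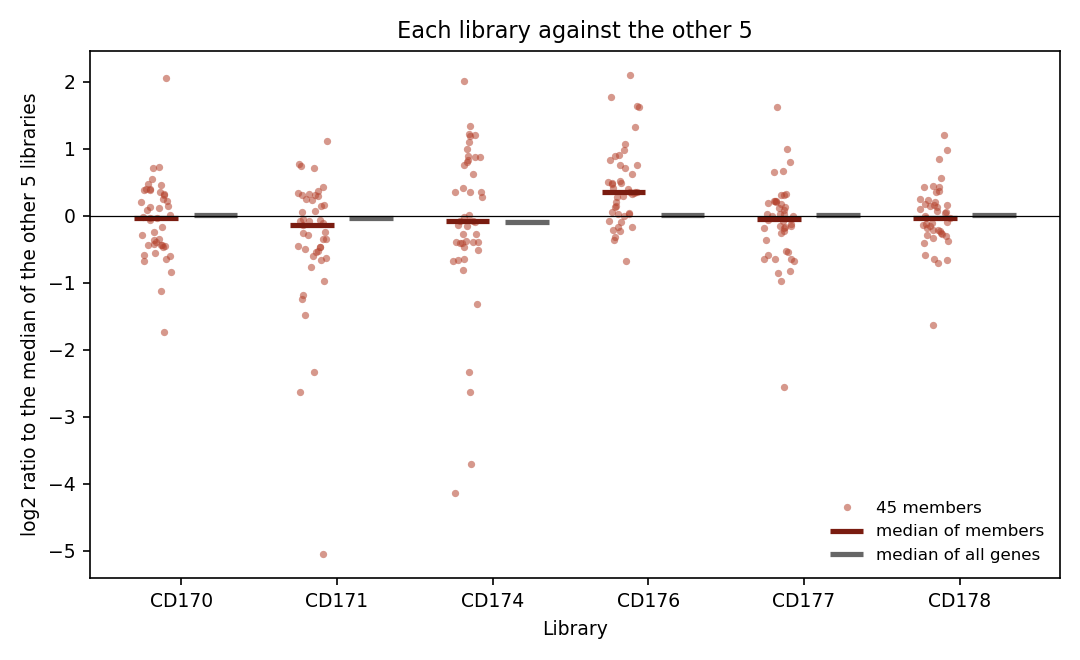
Points give the log2 ratio of each of the 45 members in a library to the median of the other 5 libraries. Dark red lines are medians of the members and grey lines medians of all genes past the filter. The members' median is 0.36 in CD176 and below 0 in the other libraries.

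Other measures also differed between the libraries. Hspa1a and Hspa1b, near-identical genes of inducible HSP70 that are uncertain individually, summed to 112 CPM in CD176, 50.2 in CD174, 15.4 in CD171, 14.6 in CD170, 6.03 in CD178 and 4.64 in CD177. CD176 and CD174 were highest for this pair too. Among the abundant heat shock genes, Hspa8 was highest in CD176 at 3034 CPM and lowest in CD170 at 1661 CPM. Hsp90ab1 ran from 1523 CPM in CD178 to 2432 CPM in CD171, and Hsp90aa1 from 219 CPM in CD178 to 492 CPM in CD174. The whole list of 12 heat shock genes was at 6007 CPM in CD176, 5816 CPM in CD171 and 5753 CPM in CD174, and 3953 CPM in CD178, the lowest. Of the sum in CD176, 3034 CPM was Hspa8. The median log2 ratio of the list to the other libraries was highest in CD174, at 0.40, with 0.27 in CD176 and 0.26 in CD171. Epithelial markers, 9 genes with Sftpc and Scgb1a1 among them, had counts in every library. They summed to 3117 CPM in CD174, 578 CPM in CD178 and 508 CPM in CD176, and to no more than 307 CPM in CD170, CD171 and CD177. Sftpc was at 1602 CPM in CD174 and 199 CPM in CD176. Red cell markers were at 1732 CPM in CD176 and ranged from 111 CPM in CD177 to 2882 CPM in CD170. The part of these in the levels of the members was not tested.

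The promoters of 5 members, picked after their values were seen, are shown as examples of the motifs: those of Btg2, Dusp1 and Zfp36, which were high in CD176, and those of the inhibitor genes Nfkbia and Tnfaip3, which stayed within 1.63-fold over the 6 libraries. NF-kB letters were in windows of 13 members. Of these, Fos, Fosb, Egr2 and Nfkbid were highest in CD176. Fosl2, Ier3, Maff, Nfkb2, Nfkbie, Nr4a1 and Rel, like Nfkbia and Tnfaip3, were not. TGACGTCA was also in a window of Maff, highest in CD177. Each run is the RefSeq window on GRCm38.p6 of 250 bases before to 50 after a gene's start, 5′ to 3′ on the strand of the gene. Capitals mark letters of the cyclic AMP response element (TGACGTCA) in Btg2 and Dusp1, of the SRF-binding CArG box in Zfp36, and of the NF-kB motif in Nfkbia and Tnfaip3, where the AP-1 letters TGANTCA are also in capitals.
Btg2 promoter, chr1:134079106-134079405, minus strand: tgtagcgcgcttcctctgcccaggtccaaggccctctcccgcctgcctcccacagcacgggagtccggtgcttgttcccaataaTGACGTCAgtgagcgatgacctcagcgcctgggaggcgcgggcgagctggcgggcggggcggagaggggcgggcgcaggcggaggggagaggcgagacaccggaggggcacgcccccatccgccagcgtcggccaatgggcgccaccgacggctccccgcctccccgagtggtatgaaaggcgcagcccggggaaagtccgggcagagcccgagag
Dusp1 promoter, chr17:26508423-26508722, minus strand: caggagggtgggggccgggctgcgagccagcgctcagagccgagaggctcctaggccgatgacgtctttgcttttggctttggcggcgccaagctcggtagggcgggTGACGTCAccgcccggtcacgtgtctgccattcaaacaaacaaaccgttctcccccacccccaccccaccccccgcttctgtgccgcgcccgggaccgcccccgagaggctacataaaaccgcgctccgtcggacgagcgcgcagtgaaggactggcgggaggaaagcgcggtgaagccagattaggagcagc
Zfp36 promoter, chr7:28379179-28379478, minus strand: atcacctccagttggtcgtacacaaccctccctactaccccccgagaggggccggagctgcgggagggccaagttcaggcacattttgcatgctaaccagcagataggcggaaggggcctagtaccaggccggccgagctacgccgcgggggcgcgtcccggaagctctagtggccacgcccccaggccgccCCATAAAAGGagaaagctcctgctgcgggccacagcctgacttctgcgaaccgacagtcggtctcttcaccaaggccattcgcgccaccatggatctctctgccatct
Nfkbia promoter, chr12:55492598-55492897, minus strand: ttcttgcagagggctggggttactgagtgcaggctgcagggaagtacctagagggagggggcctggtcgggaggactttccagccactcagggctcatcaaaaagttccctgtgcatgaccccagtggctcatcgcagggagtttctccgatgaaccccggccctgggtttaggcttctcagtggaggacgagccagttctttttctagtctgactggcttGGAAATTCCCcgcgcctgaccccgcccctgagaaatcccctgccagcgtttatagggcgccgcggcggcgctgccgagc
Tnfaip3 promoter, chr10:19015361-19015660, minus strand: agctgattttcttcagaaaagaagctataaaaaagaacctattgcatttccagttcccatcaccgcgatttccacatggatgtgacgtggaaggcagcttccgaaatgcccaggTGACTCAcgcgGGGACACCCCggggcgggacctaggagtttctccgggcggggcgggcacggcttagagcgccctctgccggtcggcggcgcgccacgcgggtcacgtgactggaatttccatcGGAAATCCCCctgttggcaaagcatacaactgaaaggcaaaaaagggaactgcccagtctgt

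The motif letters start 166 and 143 bases before the gene's start in Btg2 and Dusp1, and 58 bases before it in Zfp36. In Nfkbia the NF-kB letters start 29 bases before the gene's start, and in Tnfaip3 125 and 12 bases before it, with the AP-1 letters 136 bases before. Windows were matched for 37 of the 48 members by symbol, 51 windows in all. The 11 without a window were Fosl1, Egr1, Egr3, Klf10, Myc, Ier2, Dusp4, Zfp36l2, Nfkb1, Relb and Nfkbiz. Their promoters were not searched, nor was any sequence more than 250 bases before a start, so a motif there would be missed. Both strands were searched, and matches that overlap were all kept. The NF-kB motif was in 15 of the 51 windows, or 29.4%, and in 8.46% of the 32851 windows of the table. The set was chosen in part as NF-kB feedback genes, so this share is not independent of that choice. Windows 2 and 3 of Nfkb2 also overlap and share a match. The CArG box was in 6 windows of the members (11.8%), and in 1.63% of all windows; these belonged to Egr2, Dusp5 and Zfp36, with 4 from Egr2, of which 3 overlap one another. TGACGTCA was in 4 windows (7.84%), those of Btg2, Dusp1, Maff and Nfkbid, and in 1.79% of all windows. TGANTCA was in 5 windows (9.80%) and in 7.81% of all. Several genes have more than 1 window, so windows are not independent, and these matches describe letters only.

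The GADD45 genes, small stress proteins that act on MAP kinase kinase kinases and the cell cycle, were led by Gadd45g. Gadd45g was at 312 CPM in CD174, 189 in CD176, 136 in CD171, 122 in CD178, 111 in CD170 and 87.2 in CD177. CD174 was highest, 1.65 times above CD176, and CD177 was lowest. Gadd45b was at 15.5 CPM in CD174, 14.0 in CD177, 14.0 in CD178, 12.1 in CD176, 10.2 in CD170 and 8.80 in CD171, with a log2 range of 0.81. Gadd45a was at 5.96 CPM in CD174, 5.56 in CD171, 3.74 in CD178, 2.49 in CD170, 2.29 in CD176 and 0.537 in CD177. CD174 and CD171 were nearly equal at the top, and CD177 was lowest, under 1 CPM. All 3 were highest in CD174 by TMM, but with total counts Gadd45a was highest in CD171 and Gadd45b in CD177.

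Among the KLF, MAF and MYC genes, Klf10 alone had CD176 as its highest library. Klf6, a zinc finger factor of macrophage activation, was at 463 CPM in CD171, 420.0 in CD177, 374 in CD174, 372 in CD176, 349 in CD178 and 247 in CD170. CD171 was highest and CD170 lowest. Klf10, a target of TGF-beta signalling, was at 288 CPM in CD176, 253 in CD178, 247 in CD170, 224 in CD174, 218 in CD177 and 179 in CD171, a log2 range of 0.68. Klf4, a factor of monocyte and macrophage differentiation, was at 197 CPM in CD178, 190 CPM in CD170 and 188 CPM in CD177, and at 83.0 CPM in CD171. Klf2, known to restrain inflammatory activation of myeloid cells, ran from 16.2 CPM in CD174 to 38.1 CPM in CD170. Myc, a growth-promoting transcription factor, was at 95.9 CPM in CD177, 79.1 in CD170, 60.9 in CD176, 60.0 in CD174, 51.4 in CD171 and 50.4 in CD178. Maff, a small MAF protein that lacks a transactivation domain, was at 73.2 CPM in CD177, 63.7 in CD170, 48.3 in CD176, 46.5 in CD171, 45.4 in CD174 and 44.8 in CD178. Both had CD177 highest, CD170 second and CD178 lowest. Mafk, another small MAF gene, lay between 32.1 and 61.3 CPM.

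By TMM none of the 5 NF-kB subunits reached a log2 range of 1, where 50.5% of all genes did. Nfkb2 at 0.94 and Rel at 0.89 were just under it, and with total gene counts Rel was at 1.11. Nfkb1, precursor of the p50 subunit, was at 187 CPM in CD170, 160.0 in CD176, 148 in CD177, 145 in CD178, 140.5 in CD171 and 140.3 in CD174. Its log2 range of 0.41 was the smallest among the 45 members, with CD170 highest. Rela, the p65 subunit with a transactivation domain, was at 102 CPM in CD170, 95.05 in CD176, 86.2 in CD178, 86.1 in CD177, 80.2 in CD171 and 64.9 in CD174. CD170 was highest and CD174 lowest for Rela, as they were for Rel, which ran from 28.7 to 53.4 CPM. Nfkb2, precursor of p52 in the non-canonical pathway, was at 92.3 CPM in CD174 and 48.1 to 63.0 CPM elsewhere. Relb, its usual partner, ran from 16.6 CPM in CD171 to 28.3 CPM in CD174. The subunits together summed to 343 CPM in CD178 up to 415 CPM in CD170, a ratio of 1.21.

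Among the NF-kB inhibitors, Nfkbid, Nfkbie and Nfkbiz reached a log2 range of 1 over the 6 libraries. Without CD174 Nfkbie and Nfkbiz did not, and without CD171 and CD174 their ranges were 0.65 and 0.67, against 0.68 for Nfkbia, 0.59 for Tnfaip3 and 1.99 for Nfkbid. Nfkbia, which encodes IkB-alpha and is itself induced by NF-kB, was at 105 CPM in CD171, 104 in CD176, 101 in CD170, 86.0 in CD177, 76.4 in CD174 and 64.7 in CD178. CD171, CD176 and CD170 were nearly equal at the top and CD178 was lowest. Tnfaip3, which encodes the ubiquitin-editing enzyme A20, was at 42.9 CPM in CD171, 42.6 in CD177, 38.0 in CD178, 33.8 in CD176, 29.3 in CD174 and 28.2 in CD170. CD171 and CD177 were highest, and the log2 range was 0.60. Nfkbid, an atypical nuclear IkB, was at 13.4 CPM in CD176, 8.10 in CD177, 7.31 in CD178, 7.10 in CD171, 3.29 in CD170 and 0.447 in CD174. CD176 stood 1.65 times above CD177, the next library, and CD174 had only 3 counts. Nfkbiz, the nuclear IkB-zeta, was at 4.86 CPM in CD171, 4.68 in CD177, 4.64 in CD176, 3.74 in CD178, 2.92 in CD170 and 0.149 in CD174. CD174 had 1 count of it, and the other 5 libraries had 55 to 96 counts. Nfkbie, which encodes IkB-epsilon, ran the other way, at 33.5 CPM in CD174 and 10.3 to 18.2 CPM in the others.

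Genes upstream of these programmes had median log2 ranges of 0.49 for immediate early genes and 0.63 for NF-kB, where the median of all genes was 1.01. These lists were not matched to all genes by level. Of 21 kinases and factors upstream of immediate early genes, which include Srf, Creb1 and several MAP kinase genes, 6 reached a log2 range of 1. Among all genes past the filter 50.5% did. The sum of the 21 genes differed by a ratio of 1.08 between libraries. Mapk3 lay between 442 and 546 CPM and Rps6ka3 between 174 and 243 CPM. The widest ranges in this list were those of Map2k6, at 9.08 CPM in CD174 and 2.24 CPM or less elsewhere, and of Rps6ka5, at 10.3 CPM in CD174 and up to 41.6 CPM in CD177. Of 20 genes upstream of NF-kB, 5 had such a range, against the same 50.5% of all genes. In CD174 13 of the 20 were lowest, against 36.9% of all genes. Ikbkb lay between 141 and 179 CPM, Myd88 between 88.2 and 138 CPM and Irak1 between 92.6 and 119 CPM. Bcl3, an atypical IkB, had 0.149 CPM in CD174 and 6.71 to 15.1 CPM elsewhere, and Map3k14, the NIK kinase, ran from 8.49 CPM in CD174 to 26.5 CPM in CD176.

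Of 16 output genes of NF-kB, 11 passed the filter and 7 of them reached a log2 range of 1, where 50.5% of all genes did. Il1b, the interleukin 1 beta gene, was at 105 CPM in CD176 and 38.1 CPM or less elsewhere. It was named after its values were seen. The sum of the output list was 458 CPM in CD176, and at most 409 CPM in any other library. Without Il1b the sum in CD176 was 353 CPM, within the 345 to 382 CPM of the rest. By TMM, 7 of the 11 output genes past the filter were highest in CD174, against 29.9% of all genes. Il1b alone was highest in CD176. Cxcl2, a neutrophil chemokine, had no count in CD171 and reached 6.11 CPM in CD174, and Ccl3 ran from 0.772 CPM in CD171 to 17.6 CPM in CD174. The most abundant, Icam1, Sod2 and Nlrp3, were not highest in CD176: Icam1 ran from 68.2 CPM in CD174 to 121 CPM in CD178, Sod2 from 84.1 to 110 CPM and Nlrp3 from 43.5 to 75.4 CPM. The 9 neutrophil markers summed to 83.2 CPM in CD176 and to 61.6 CPM in CD174 up to 102 CPM in CD177, with Ly6g at 0 in all 6 and Mmp8 at 39.4 CPM in CD176. Their part in these levels was not tested.

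Ordered by median level per kilobase of exons, Zfp36l2 led the set at 229 CPM per kilobase, and was followed by Gadd45g at 110 and Rhob at 95.4. Klf6, Ier2, Btg2, Ier5, Fos and Junb lay close together, between 84.9 and 76.6 CPM per kilobase. Nfkbia, at 58.0, was the highest NF-kB gene, and Rela the highest subunit, at 28.0. The length is that of all annotated exons merged, 3072 bases for Rela and 12061 for Nfkb1, so the order depends on it. Without division by length the median of Nfkb1, 147 CPM, was above that of Rela, 86.1 CPM. The middle of the order held Dusp1 at 19.1, Nfkb1 at 12.2 and Tnfaip3 at 4.96 CPM per kilobase. At the low end were Fosb at 1.31, Nfkbiz at 0.834 and Egr1 at 0.437 CPM per kilobase. For 45 of the 46 neighbouring pairs the ranges over the 6 libraries overlapped. The exception was Egr2, whose lowest library, at 34.9, was just above the highest of Rela, at 33.3. Overlapping ranges do not compare genes within a library. Maff, for example, was above Atf3, the next in the order, in every library.

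**Figure D5:**
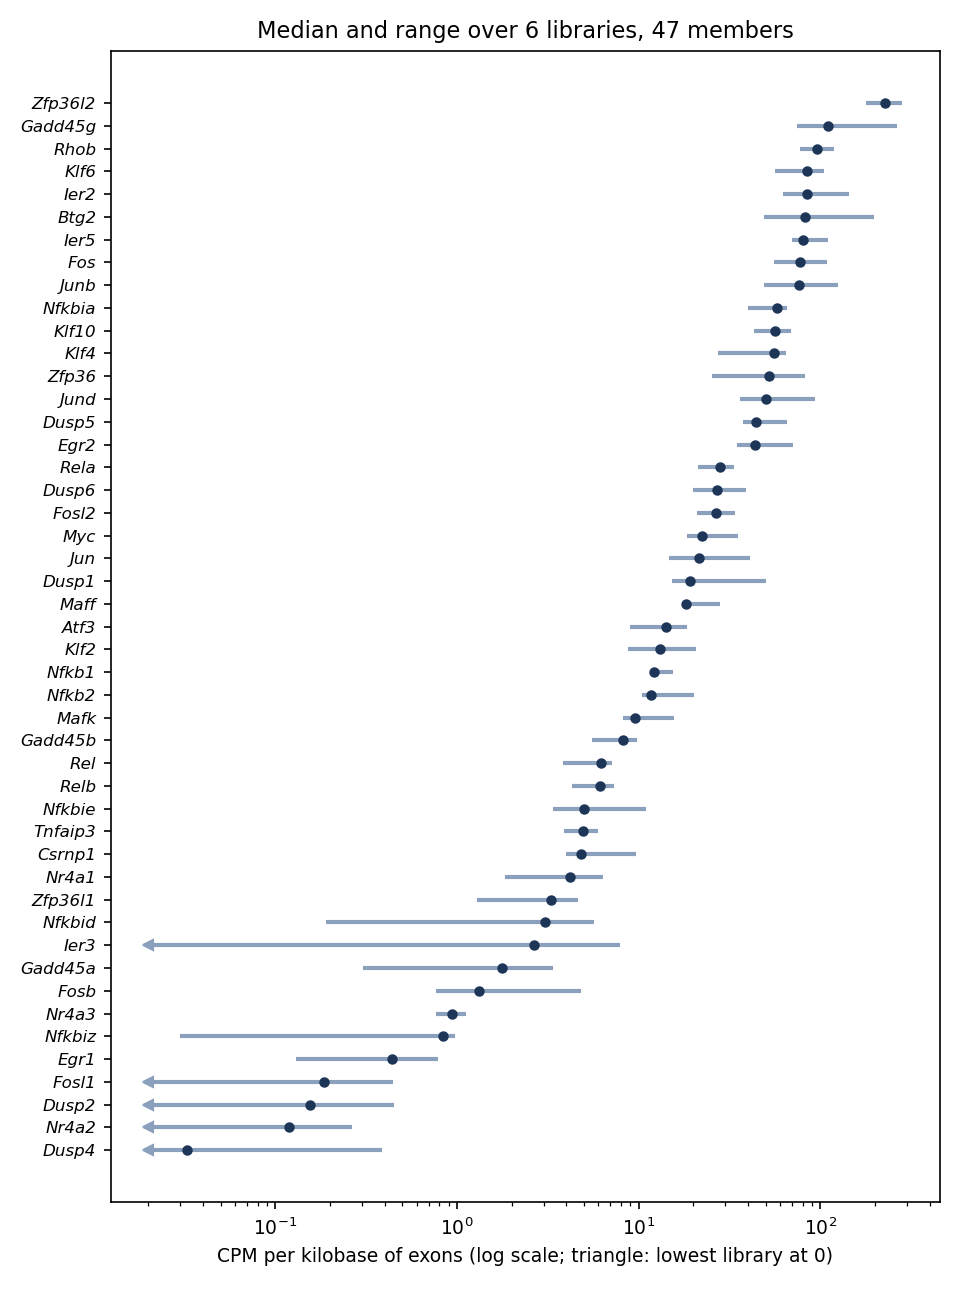
Points give the median and lines the range over the 6 libraries of CPM per kilobase of merged exons, on a log axis, for the 47 members with a count. Triangles mark members listed at 0 in their lowest library; Zfp36l2 is at the top with 229 CPM per kilobase and Egr1 is near the bottom with 0.437.

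The members are compact genes. In the GENCODE M21 annotation on GRCm38, the 45 members past the filter had a median span of 7015 bases and a median of 4 exons, against 23796 bases and 9 exons for the 11354 protein-coding genes past the filter. Exons were counted in the transcript with the longest coding sequence. Of the 45, 30 had at most 4 exons, or 66.7%, against 19.2% of protein-coding genes. The 6 members with a single exon by this count, Jun, Junb, Jund, Ier2, Ier5 and Rhob, had their highest level in CD174 in 4 cases and in CD176 in the other 2. Of these, Junb spans 4235 bases, of which 2301 are exon in any annotated transcript, so it is not a single exon as a whole. Among all 242 single-exon protein-coding genes past the filter, 35.1% were highest in CD174 and 15.3% in CD176; among the 5462 with 10 or more exons, 23.0% and 9.48% were. The 24 members with 2 to 4 exons had a median log2 ratio of 0.46 in CD176, where the 1941 genes of that class had 0.07. The part of gene structure in the members' levels was not tested. Fos (ENSMUSG00000021250, chromosome 12, 85473890 to 85477273, plus strand) is a typical case with 4 exons, and Btg2 (ENSMUSG00000020423, chromosome 1, 134075170 to 134079120, minus strand) has 2. Exons of 13 members overlap those of another gene, always on the opposite strand, and without a stated strand setting their reads cannot be told apart. Among these are Jund with Gm11175, Junb with Prdx2, Jun with Junos and Zfp36l1 with Gm26669.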

How the data were processed

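The deposited table holds whole-number counts of reads per gene and library. The submitters' processing notes name the genome build GRCm38, STAR 2.7.1a and HTSeq 0.11.2, with Trim Galore 0.6.2 and bcl2fastq 2.18.0.12. They give neither an annotation release nor a strand setting. No library label names a group, so no test of a difference was run and no mean was taken over libraries. Rows that name no gene held 18.8 to 46.0% of all counts and stayed out of library sizes. The gene counts were scaled with TMM factors in edgeR 4.0.16 under R 4.3.3, and a prior count of 2 was used only for log2 values. The filter of 10 or more counts in 3 or more libraries left 12627 genes. Log2 ranges and ratios to the median of the other libraries were tested on simulated data. Gene models came from GENCODE M21, matched by ID without its version, which found 48435 of the 48795 IDs, and 29 of the 48 members at the same version.

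The members and lists were chosen with earlier results of these data known. Values in every library are given for the 2 members of each family with the highest median CPM, the 10 members with the largest and the 5 with the smallest log2 range, and in counts for members below the filter. The pathway lists are given by the 3 genes of highest median and the 2 of largest range, except 1 gene that is not reported here, and the marker lists by their sums. Other members named with values, Jun, Junb, Jund and Csrnp1 among them, were named after the values were seen. Alternatives were DESeq2 1.42.0 size factors, total gene counts, a smaller prior count, no filter and leaving out libraries.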

Additional observations from a re-analysis of the deposited data

Results flagged for a closer look

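In 5 of 71 values examined over the 6 libraries, 45 of them single members, 1 library stood apart from the rest. On the log2 scale, the gap from it to the next library, divided by the whole range, was above Dixon's 95% critical ratio for 6 samples. On linear CPM the ratio was above it only for the NF-kB output genes, of these 5. Chance alone gives this in about 1 of 20 such groups. Ier3 was at 0 CPM in CD171, its lowest library, where the log2 value is set by the prior count. Zfp36l1 was at 3.87 CPM in CD174, its lowest, and Nfkbiz was at 0.149 CPM in CD174, from 1 count. The genes upstream of NF-kB summed to 959.7 CPM in CD174, their lowest. The NF-kB output genes summed to 457.8 CPM in CD176, their highest, of which 105 CPM was Il1b.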

How the results depend on the processing

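No paired analysis was possible because the labels put none of the libraries in a group. With total gene counts the median log2 ratio of the members in CD174 was -0.36, against -0.08 by TMM, and the ratio of the highest to the lowest summed CPM was 1.47, against 1.42; the median gene shifted by up to 0.20. Without CD171 and CD174, 26 of 45 members were highest in CD176, against 25.2% of all genes. The sum ratio there was 1.39 and the median ratio of CD178 was -0.13. Leaving out 1 library at a time, 13 to 21 members were highest in CD176, against 13.8 to 16.8% of all genes. CD176 has no such value without itself. In these settings 13 to 19 members were lowest in CD171, which likewise has no value without itself. The share of all genes lowest in CD171 was taken only over the 6 libraries, where it was 22%. The sum ratio ran from 1.19 without CD176, when CD174 was highest, to 1.42. The median ratio ran from -0.14 to 0.028 for CD170 and from -0.19 to -0.041 for CD174. The members with a log2 range of 1 or more numbered 24 of 45 by TMM, against 50.5% of all genes. They numbered 23 with DESeq2 size factors (50.4% of all genes), 26 with total counts (53.0%) and 16 without CD171 and CD174 (16.9%). Without a filter they numbered 26 of 48, against 28.3% of 48795 genes, so these shares have another base. CD174 is the shallowest library, and Egr1, Fosl1, Nr4a2, Dusp2 and Dusp4 rest on few counts.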
